A study of Mus musculus with 56 samples.

Results

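The liver transcriptome at the nadir of miR-122, 45 days after Cre delivery, was compared gene by gene with that of uninjected livers. The measured genes were all 11166 symbols, of 21888 in the RNA-seq table, whose mean over the 3 uninjected and 3 day 45 livers was at least 1 FPKM, a fragment count scaled to transcript length and library size. These 6 livers belong to 14 with RNA-seq data. The others are 3 livers at day 21 after Cre, 1 each at days 100 and 200, and 3 of germline miR-122 knockout mice. All 14 share the estimate of the spread behind each test. All 6 came from adult mice of a labelled 129Sv/J background that carried loxP sites on both sides of the miR-122 precursor. The day 45 mice had received rAAV8-Ef1a-Cre, an adeno-associated virus that carries the Cre recombinase under the ubiquitous Ef1a promoter, by tail vein, and the day 0 mice had received nothing. None of the 14 livers came from a mouse given a vector without Cre. Between the 6 livers, loss of miR-122, the vector, Cre itself and the 45 days therefore cannot be told apart. Each library is poly-A RNA of 1 liver from 1 mouse, and values are given in the order of replicates A, B and C.

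miR-122 is the dominant microRNA of hepatocytes, the main cell of the liver. It pairs through its seed, the bases near its 5′ end, with sites in the 3′ untranslated regions (UTRs) of messenger RNAs and lowers their level. It is known for restraining genes of glycolysis, amino acid transport and the cell cycle in the adult liver, and for its role in lipid metabolism. Mice that lack it develop inflamed and fibrotic livers and later liver tumours.

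Some facts of the libraries touch the results. The labels give no sex, but uninjected replicate B and day 45 replicate C held transcripts of the Y chromosome and almost no Xist, and the other 4 livers held Xist, so each group had 1 liver of the first kind and 2 of the second. Clock genes, looked at after their values were seen, differed among the uninjected livers: Dbp, an output of the circadian clock, stood at 38.5, 5.99 and 2.596 FPKM there and at 48.5, 53.2 and 82.6 FPKM at day 45, so uninjected replicate A lay closest to the day 45 livers. Of 13 tested clock genes, 4 were higher at day 45 by limma at an adjusted p below 0.05 and 1 lower. Dbp, Tef, Per2 and Per3 were higher (adjusted p = 0.012, 0.013, 0.0095 and 0.019) and Nfil3 lower (0.0014). Among all tested genes 22.9% were higher and 3.09% lower by the same test. Since the clock genes were picked with their values in view, their count is not read as a result. The hour at which the livers were taken is not given in the sources used here, so it cannot be told apart from the groups. Of the 5 defining hepatocyte markers, Apoa1 and Ttr, which encode plasma carriers of lipid and thyroid hormone, stood at no less than 6492 and 7500.3 FPKM in the 6 livers. Albumin (Alb) and Serpina1a were listed at 0 in all 6, and 7 other genes, among them Ahsg, Trf, Serpina1b and Serpina3k, were listed at 0 in some livers and stood among the most abundant genes in others. Such zeros can be failed estimates, and no fold change is read from them. The table holds no fragment numbers. The steps between its low values gave a rough estimate of 54000000 to 56000000 effective fragments per uninjected liver and 40000000 to 53000000 per day 45 liver.

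The loss of miR-122 was checked in the small RNA libraries of the groups with the same labels. Whether they come from the same mice is not stated. miR-122 made up 73.3, 59.2 and 66.7% of the listed microRNA reads in the uninjected livers (66.4% ± 7.06, mean ± SD, n = 3) and 0.908, 0.383 and 1.23% at day 45 (0.839% ± 0.426, n = 3). The groups did not overlap, and the mean log2 share fell by 6.46, an 87.9-fold difference. An exact two-sided permutation test gave p = 0.1, the smallest that 3 mice against 3 allow. The row of the miR-122 precursor in the RNA-seq table was at 0 in all 6 livers and checks nothing.

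Matches to the miR-122 seed in some of its known targets are shown first. A match was defined as the 7 bases ACACTCC, which pair with bases 2 to 8 of miR-122, on the sense strand of the longest annotated 3′ UTR of a gene (GENCODE vM1, mm9). Of 21 tested genes on a list of known miR-122 targets, 11 held at least 1 match, and of all 10830 tested genes with an annotated 3′ UTR, 908 did (8.38%). The capitals mark the match, and each sequence reads 5′ to 3′ along the messenger RNA in DNA letters.
Ccng1: tttaggcttgataaaACACTCCa
Agpat1: tggaagctgcacctgACACTCCt
Aldoa: aaggctgctccatcaACACTCCa
Pkm2: cttctgtcactgcagACACTCCa
Cd320 first site: gactggggtcctcagACACTCCc
Cd320 second site: gctactgtggtttagACACTCCt
P4ha1 first site: gtttacagctgactaACACTCCa
P4ha1 second site: taaacacgtgaggaaACACTCCa

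In mm9 these lie at chr11:40562553-40562575 on the minus strand (Ccng1), chr17:34749815-34749837 on the plus strand (Agpat1), chr7:133938897-133938919 on the minus strand (Aldoa) and chr9:59527074-59527096 on the plus strand (Pkm2). The Cd320 sites lie at chr17:33985529-33985551 and chr17:33985632-33985654, and the P4ha1 sites at chr10:58833892-58833914 and chr10:58835587-58835609, all on the plus strand. The Ccng1, Aldoa, Pkm2 and P4ha1 matches are followed by an A, the base that favours repression, and the others shown are not. A match is a description of the sequence, and binding was not measured here.

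Known miR-122 targets rose together. Of the 21 tested, 19 were called higher and none lower (median log2 fold change 1.53, 1.34 above that of all tested genes), and 17 of the 19 that averaged at least 1 FPKM in each group. A gene is called when its Benjamini-Hochberg adjusted p over all 11166 genes, from limma, is below 0.05. Among all tested genes 22.9% were called higher and 3.09% lower. Ccng1, cyclin G1, stood at 12.5, 12.2 and 13.9 FPKM in the uninjected livers and 109, 91.6 and 90.7 FPKM at day 45 (log2 fold change 2.82 ± 0.38 (SE), adjusted p = 0.00055). Agpat1, which makes phosphatidic acid, stood at 5.64, 3.91 and 4.41 FPKM in the uninjected livers and 35.3, 35.4 and 33.5 FPKM at day 45 (log2 fold change 2.67 ± 0.25 (SE), adjusted p = 7.9e-05). Aldoa, the aldolase of muscle and fetal liver, stood at 69.4, 73.1 and 62.1 FPKM in the uninjected livers and 257, 255 and 397 FPKM at day 45 (log2 fold change 2.10 ± 0.26 (SE), adjusted p = 0.00039). In all 3 genes the lowest day 45 liver lay well above the highest uninjected liver, and the 3 day 45 values of Agpat1 differed least. In the 3 germline knockout livers Ccng1 stood at 8.27, 9.32 and 33.5 FPKM. It did not pass the test against the uninjected livers there (log2 fold change 0.10 ± 0.38 (SE), adjusted p = 0.85 by limma). Aldoa was called higher there (2.45 ± 0.26 (SE), adjusted p = 8.5e-05). The cause of this difference was not tested.

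The other called targets rose by between 0.61 (Adam17, a membrane sheddase) and 2.14 (Ctgf, a matricellular growth factor) on the log2 scale. They were Sox4 (1.84 ± 0.38), Tmed3 (1.74 ± 0.20), Pkm2 (1.64 ± 0.41), Iqgap1 (1.57 ± 0.21), Hfe2 (1.55 ± 0.17), Bckdk (1.53 ± 0.19), Cd320 (1.53 ± 0.26), Klf6 (1.42 ± 0.38), Ndrg3 (1.32 ± 0.17), Adam10 (1.12 ± 0.31), Gys1 (1.09 ± 0.19), Cs (1.03 ± 0.18), Mapre1 (0.95 ± 0.18) and P4ha1 (0.89 ± 0.15), all as log2 fold change with SE. Among them are enzymes and regulators of metabolism: Pkm2 is the pyruvate kinase of proliferating cells, Gys1 the glycogen synthase of muscle, Cs citrate synthase, Bckdk the kinase that restrains branched-chain amino acid breakdown, and P4ha1 a collagen prolyl hydroxylase. Others act at the cell surface or in transport, such as Cd320, the receptor for cobalamin-bound transcobalamin, Hfe2, a co-receptor of iron sensing, Adam10, a sheddase, and Tmed3, a cargo protein of the secretory pathway. Iqgap1 and Mapre1 are scaffolds of actin and microtubules, and Sox4 and Klf6 are transcription factors. Hfe, an iron-sensing relative of MHC class I, at 32.6, 29.8 and 33.99 FPKM in the uninjected livers and 39.1, 37.1 and 38.1 FPKM at day 45, and Cux1, at 5.34, 8.56 and 5.98 FPKM in the uninjected livers and 7.95, 9.23 and 10.2 FPKM at day 45, did not pass the test (adjusted p = 0.37 and 0.088). Slc7a1, the classic target and a transporter of cationic amino acids, was too low to be tested, at 0.138, 0.175 and 0.241 FPKM in the uninjected livers and 0.745, 1.62 and 0.886 FPKM at day 45. The call of Adam17 was lost in each fit without 1 liver other than uninjected replicate C or day 45 replicate A (adjusted p = 0.064 to 0.14). That of Adam10 was lost without uninjected replicate A (adjusted p = 0.065) and day 45 replicate B (adjusted p = 0.091), and that of Klf6 without uninjected replicate B (adjusted p = 0.067) and day 45 replicate B (adjusted p = 0.077). The 19 calls became 16 without day 45 replicate B. By the genes' sites, the median log2 fold change was 1.53 for the 11 targets with a match and 1.22 for those without.

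Over the whole transcriptome, 2555 genes were called higher and 345 lower at day 45, and 4086 had an unadjusted p below 0.05. The change was over 2-fold on the log2(FPKM + 1) scale for 1264 of those called higher and 102 of those called lower. The median log2 fold change of all tested genes was 0.19, so the table as a whole was shifted upward, and list medians are therefore also given relative to it. When each library was centred on its median gene, 1696 genes were called higher and 715 lower, and higher genes made up 70.3% of the calls in place of 88.1%. In 4407 genes (39.5%) every day 45 liver lay above every uninjected liver, and in 1076 genes (9.64%) every one lay below. Day 45 replicate B was the highest of the 3 day 45 livers in 1983 of the 2555 genes called higher, and without it 1584 were called higher and 150 lower. Without uninjected replicate A 197 were called lower, and without uninjected replicate C 227.

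Rises were more frequent among low genes and falls among abundant ones. Of the 1364 genes with a mean of 1 to 2 FPKM, 586 (43.0%) were called higher and 23 (1.69%) lower. Among the 776 genes of at least 100 FPKM, 74 (9.54%) were called higher and 99 (12.8%) lower, and their median log2 fold change was -0.15. A gene could also enter the test through 1 group alone: 818 genes had an uninjected mean below 1 FPKM and were tested because of their day 45 level, and 666 of them were called higher, while 73 genes had a day 45 mean below 1 FPKM and 20 of them were called lower. Among the 10275 genes of at least 1 FPKM in both groups, 1889 were called higher and 325 lower. Where a list holds several genes of the first kind, its count among members expressed in both groups, at a mean of at least 1 FPKM in each, is given as well.

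**Figure D1:**
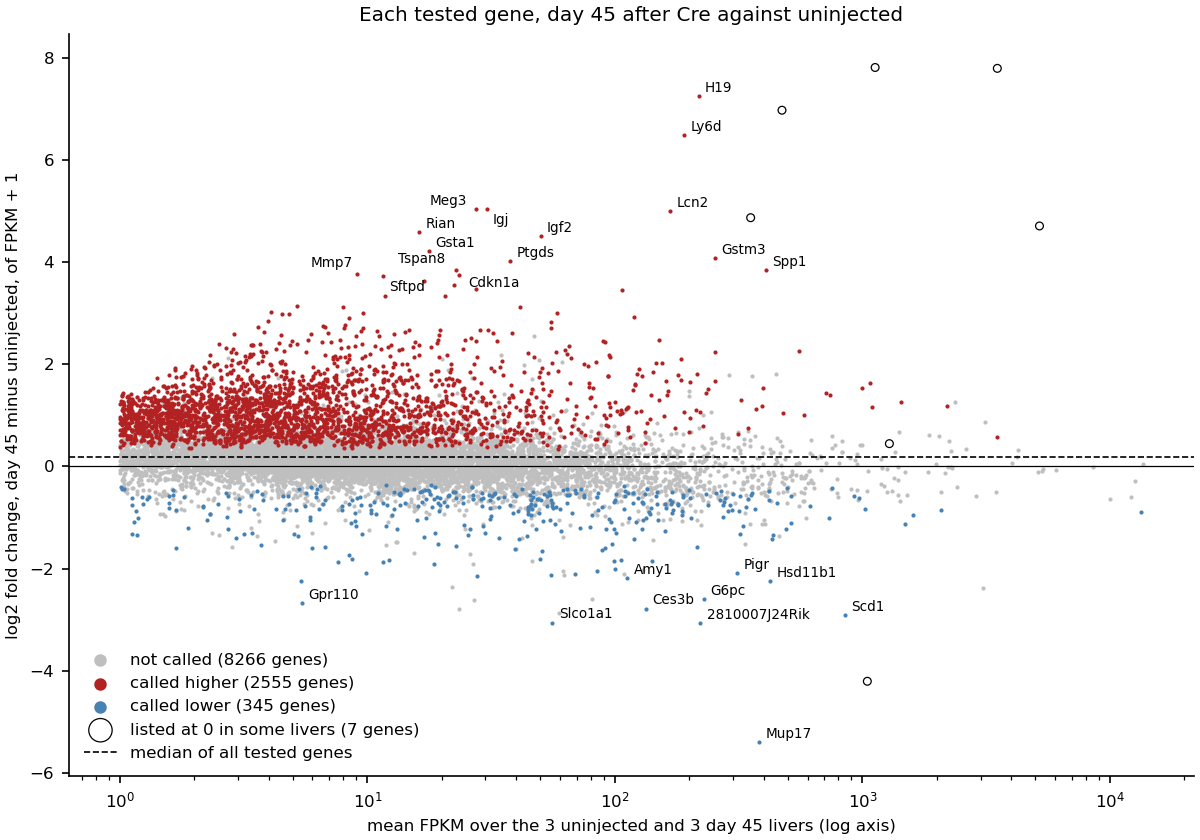
Each point is 1 of the 11166 tested genes, with its mean FPKM over the 6 livers on a log axis and its log2 fold change of FPKM + 1 at day 45 against uninjected on the vertical axis. Red points (2555) were called higher and blue points (345) lower, the dashed line is the median of all genes at 0.19, and open circles are 7 genes listed at 0 in some livers, 1 of which is among the 2555.

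Genes with a seed match moved further up than genes without one. The median log2 fold change was 0.18 for the 9922 genes without a match, 0.43 for the 822 with 1 match and 0.66 for the 86 with 2 or more. Of these, 21.3%, 41.4% and 50% were called higher, and 3.24%, 0.852% and 1.16% lower. UTRs with matches are longer (median 2140 bases with 1 match against 1042 with none), so the genes were also split by UTR length. Among UTRs of at most 500 bases the medians were 0.67 with a match (53 genes) and 0.13 without (2688 genes). Between 500 and 1500 bases they were 0.68 (217 genes) and 0.21 (3624 genes), and above 1500 bases 0.38 (638 genes) and 0.17 (3610 genes). The difference was present in each length class and smallest in the longest UTRs. Genes are not independent replicates, and no test was made across them.

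**Figure D2:**
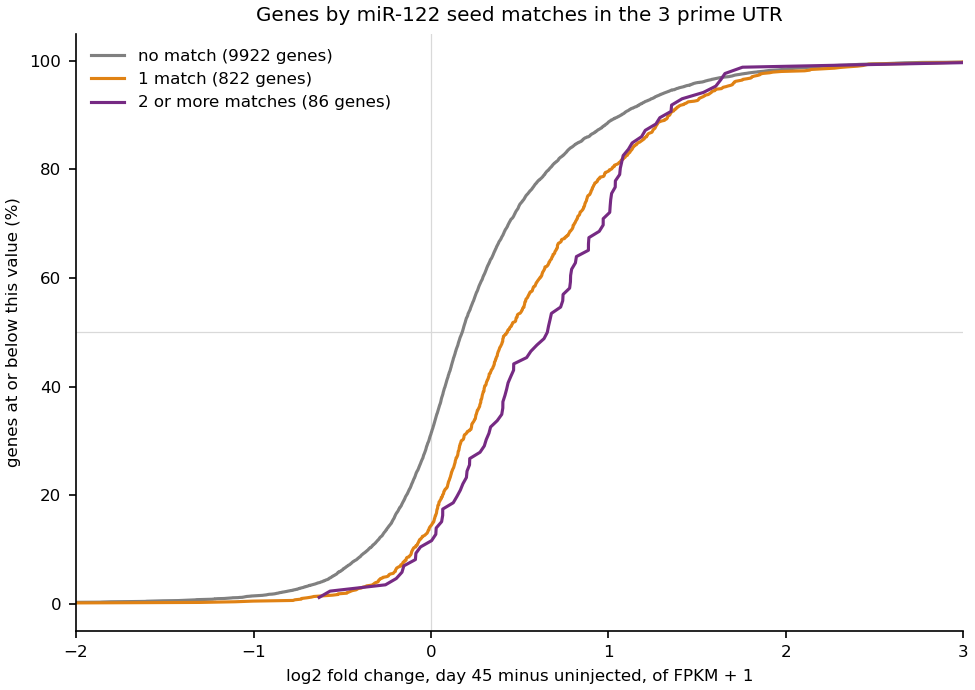
Cumulative share of genes (percent) at or below each log2 fold change of FPKM + 1, for genes with 0 (9922), 1 (822) or at least 2 (86) matches to the miR-122 seed in the longest 3′ UTR. The curves of genes with matches lie to the right over most of the range, with medians of 0.43 and 0.66 against 0.18.

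Transcripts of 2 imprinted loci that are nearly silent in the adult liver were called higher. H19, an imprinted noncoding RNA of fetal liver and the largest rise among called genes whose groups did not overlap (chr7:149761437-149764051 in mm9), stood at 2.03, 0.415 and 0.486 FPKM in the uninjected livers and 392, 845 and 66.3 FPKM at day 45 (log2 fold change 7.25 ± 0.86 (SE), adjusted p = 0.00032). Igf2, the fetal growth factor from the same imprinted locus (chr7:149836673-149846940), stood at 1.82, 0.2000 and 0.2200 FPKM in the uninjected livers and 39.8, 255 and 3.66 FPKM at day 45 (log2 fold change 4.51 ± 1.12 (SE), adjusted p = 0.011). The groups did not overlap for either gene, the day 45 livers spread widely, and replicate C was the lowest of them for both. The remaining 3 transcripts belong to the imprinted Dlk1-Dio3 locus, which also carries a large cluster of microRNAs. Meg3 (chr12:110779206-110809939) stood at 0.392, 0.181 and 0.348 FPKM in the uninjected livers and 12.7, 89.4 and 61.3 FPKM at day 45 (log2 fold change 5.03 ± 0.63 (SE), adjusted p = 0.00042). Rian (chr12:110842155-110899921), a host of the cluster's small RNAs, stood at 0.236, 0.123 and 0.234 FPKM in the uninjected livers and 12.01, 45.6 and 38.9 FPKM at day 45 (log2 fold change 4.59 ± 0.56 (SE), adjusted p = 0.00035). Mirg (chr12:110973191-110987667), the host of most of its microRNAs, stood at 0.015, 0 and 0.061 FPKM in the uninjected livers and 3.56, 12.4 and 8.45 FPKM at day 45 (log2 fold change 3.02 ± 0.38 (SE), adjusted p = 0.00040). In these noncoding genes day 45 replicate A was the lowest of the 3, unlike at H19 and Igf2.

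These 5 members of the imprinted list of 10 were the ones tested, and each had an uninjected mean below 1 FPKM and was tested because of its day 45 level, so that their count and median follow from the filter. The study singled out the Dlk1-Dio3 and Igf2 loci in these samples, so the direction of these transcripts is no independent evidence. Of the 5 members too low to be tested, Dlk1, a Notch ligand homologue and a paternally expressed gene of the locus, was listed at 0.0050, 0 and 0 FPKM in the uninjected livers and at 0.115, 3.51 and 0.727 FPKM at day 45. Rtl1, Dio3 and Begain reached at most 0.145 FPKM in the 6 livers, and Ins2 was listed at 0.

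Oncofetal genes, active in fetal liver or liver tumours, showed 8 of 11 tested members called higher and none lower. Of the 11, 4 were tested because of their day 45 level. The median log2 fold change was 2.41 over all 11, while among the 7 expressed in both groups 4 were called and the median was 1.60. Besides H19 and Igf2 this list holds Ly6d, a GPI-anchored protein of the Ly6 family, at 3.399, 1.68 and 2.62 FPKM in the uninjected livers and 263, 707 and 164 FPKM at day 45 (log2 fold change 6.49 ± 0.92 (SE), adjusted p = 0.00067). Among called genes without overlap its rise was the second largest. Sox4, a transcription factor of progenitor cells and a known miR-122 target, stood at 0.3400, 0.457 and 0.776 FPKM in the uninjected livers and 3.02, 9.21 and 2.898 FPKM at day 45, with replicate B again the highest.

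Other genes among the 15 largest rises encode secreted or surface proteins. Lcn2, the siderophore-binding lipocalin, stood at 15.1, 2.27 and 12.8 FPKM in the uninjected livers and 295, 534 and 146 FPKM at day 45 (log2 fold change 4.99 ± 0.65 (SE), adjusted p = 0.00047). Spp1, which encodes osteopontin, stood at 40.9, 45.2 and 54.6 FPKM in the uninjected livers and 383, 1259 and 654 FPKM at day 45 (log2 fold change 3.84 ± 0.36 (SE), adjusted p = 7.9e-05). Mmp7, the protease matrilysin, stood at 0.267, 0.226 and 0.252 FPKM in the uninjected livers and 9.99, 30.1 and 13.6 FPKM at day 45 (log2 fold change 3.77 ± 0.39 (SE), adjusted p = 0.00013). The groups did not overlap in any of the 3, and the smallest ratio between the lowest day 45 and the highest uninjected liver was that of Spp1. Tspan8, a tetraspanin of epithelial cells, rose by 3.85 ± 0.42, and Sftpd, surfactant protein D, by 3.72 ± 0.44 on the log2 scale. Ptgds, a prostaglandin D synthase, stood at 2.93, 0.814 and 2.18 FPKM in the uninjected livers and 142, 69.02 and 8.55 FPKM at day 45 (log2 fold change 4.02 ± 0.90 (SE), adjusted p = 0.0060), with replicate C far below the other day 45 livers. The 15 largest rises also hold Igj, Gsta1, Gstm3 and Cdkn1a, which are described with their groups. Among the 15, H19, Igj, Meg3, Rian, Igf2, Gsta1, Mmp7 and Sftpd had an uninjected mean below 1 FPKM. They were tested because of their day 45 level, so their rises are not independent of the filter.

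Cell cycle genes were higher. Of 25 tested members, 21 were called higher and none lower (median log2 fold change 1.30, 1.11 above that of all tested genes), and 12 of the 15 expressed in both groups. Ccnd1, the cyclin that opens the G1 phase, stood at 41.3, 8.22 and 44.6 FPKM in the uninjected livers and 221, 281 and 122 FPKM at day 45 (log2 fold change 2.92 ± 0.51 (SE), adjusted p = 0.0017), and uninjected replicate B was lower than the other 2 uninjected livers. Cdk4, its kinase partner, stood at 30.1, 26.2 and 30.5 FPKM in the uninjected livers and 45.3, 58.1 and 55.6 FPKM at day 45 (log2 fold change 0.85 ± 0.19 (SE), adjusted p = 0.0058). The count was 12 without day 45 replicate B.

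Of 18 tested genes of the p53 response, which arrests or kills damaged cells, 12 were called higher and none lower (median log2 fold change 1.31, 1.12 above that of all tested genes), and 7 of the 13 expressed in both groups. Cdkn1a, the cell cycle inhibitor p21, stood at 1.995, 1.36 and 4.34 FPKM in the uninjected livers and 44.7, 52.4 and 36.4 FPKM at day 45 (log2 fold change 3.75 ± 0.50 (SE), adjusted p = 0.00052), with tight day 45 values. Bax, an activator of apoptosis, stood at 29, 24.7 and 23.5 FPKM in the uninjected livers and 54.3, 60.6 and 73.8 FPKM at day 45 (log2 fold change 1.25 ± 0.23 (SE), adjusted p = 0.0025). Ccng1 is in this list too, so 1 of its 12 calls is a known miR-122 target. At day 21 Cdkn1a already stood at 32.7, 54.9 and 69.3 FPKM, and its level did not pass the test between the 2 times (log2 difference, day 45 minus day 21, -0.18 ± 0.50 (SE), adjusted p = 0.93).

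Antioxidant and conjugating enzymes, many of them targets of the transcription factor NRF2, were higher in 15 of 23 tested members and lower in none (median log2 fold change 1.37, 1.18 above that of all tested genes), and 12 of the 20 expressed in both groups were higher. Gsta1, a glutathione transferase of the alpha class, stood at 0.046, 0.947 and 0.102 FPKM in the uninjected livers and 4.88, 37.9 and 62.5 FPKM at day 45 (log2 fold change 4.22 ± 0.79 (SE), adjusted p = 0.0024). Gstm1, of the mu class, stood at 477, 499.9 and 424 FPKM in the uninjected livers and 783, 1253 and 2562 FPKM at day 45 (log2 fold change 1.54 ± 0.43 (SE), adjusted p = 0.019). Its relative Gstm3 stood at 20.6, 23.7 and 26.1 FPKM in the uninjected livers and 172, 598 and 679 FPKM at day 45 (log2 fold change 4.08 ± 0.50 (SE), adjusted p = 0.00035). In the mu class genes day 45 replicate A was the lowest and replicate C the highest, and since members of these families are nearly identical, reads may be shared among them. Ephx1, the microsomal epoxide hydrolase, rose by 1.53 ± 0.26. The call of Gstm1 was lost without uninjected replicate C (adjusted p = 0.058), day 45 replicate B (adjusted p = 0.052) and day 45 replicate C (adjusted p = 0.078).

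Of the 33 cytochrome P450 genes of families 1 to 3, 5 were called higher (15.2%) and 1 lower (3.03%), or 3 lower with median-centred libraries. Among all tested genes the shares were 22.9% and 3.09%, so the counts do not set the family apart. Cyp2c55 stood at 1.71, 4.71 and 2.85 FPKM in the uninjected livers and 9.35, 33.3 and 20.5 FPKM at day 45 (log2 fold change 2.33 ± 0.44 (SE), adjusted p = 0.0026), and Cyp3a11, the main drug-metabolising P450 of mouse liver, at 1139, 1641 and 1297 FPKM in the uninjected livers and 3056, 2915 and 3126 FPKM at day 45 (log2 fold change 1.17 ± 0.36 (SE), adjusted p = 0.029). Cyp2r1, a vitamin D 25-hydroxylase, fell by 0.92 ± 0.20 on the log2 scale. Cyp2e1, the most abundant of them, stood at 5396, 4989 and 5449 FPKM in the uninjected livers and 5696, 3798 and 5359 FPKM at day 45 (adjusted p = 0.79). The call of Cyp3a11 was lost in each fit without 1 liver other than uninjected replicate B (adjusted p = 0.066 to 0.098).

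Genes of collagen and matrix, and of the stellate cells and fibroblasts that make it, were higher. The matrix list had 30 of 33 tested members called higher and none lower (median log2 fold change 1.70, 1.51 above that of all tested genes), or 19 of the 22 expressed in both groups, and the stellate list 18 of 19 (median log2 fold change 1.39, 1.20 above that of all tested genes). In bulk tissue, more cells of a type and more RNA per cell cannot be told apart, here and for the cell types that follow. Eln, elastin, stood at 1.08, 0.715 and 1.34 FPKM in the uninjected livers and 11.3, 69.8 and 17.4 FPKM at day 45 (log2 fold change 3.63 ± 0.54 (SE), adjusted p = 0.00083). Col3a1, a fibrillar collagen, stood at 6.75, 5.598 and 8.65 FPKM in the uninjected livers and 39.5, 127 and 60.8 FPKM at day 45 (log2 fold change 3.12 ± 0.42 (SE), adjusted p = 0.00054). Dcn, the proteoglycan decorin and an abundant member of both lists, stood at 157, 116 and 158 FPKM in the uninjected livers and 274, 343 and 281 FPKM at day 45 (log2 fold change 1.06 ± 0.27 (SE), adjusted p = 0.011). Replicate B was the highest day 45 liver in all 3, and the stellate count was 11 without day 45 replicate B. The call of Dcn was lost without uninjected replicate B (adjusted p = 0.051) and day 45 replicate B (adjusted p = 0.056).

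Of the defining stellate markers, Col1a1 stood at 0.942, 0.648 and 0.881 FPKM in the uninjected livers and at 7.20, 22.9 and 7.91 FPKM at day 45. Lrat, which stores vitamin A in quiescent stellate cells, stood at 3.63, 4.00 and 6.66 against 11.6, 25.7 and 7.81 FPKM. Pdgfrb was called higher as well, and Reln was not (adjusted p = 0.052). Fn1, fibronectin, which hepatocytes also secrete, did not pass the test, at 166, 155 and 186 FPKM in the uninjected livers and 187, 204 and 102 FPKM at day 45 (adjusted p = 0.87). Summed over the list, stellate markers came to 308 to 448 FPKM in the uninjected livers and 859 to 1264 FPKM at day 45, with no overlap.

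Markers of cholangiocytes, the cells that line bile ducts, and of ductal progenitors had 18 of 20 tested members called higher (median log2 fold change 1.95, 1.76 above that of all tested genes), and 11 of the 13 expressed in both groups (median 1.84). Their summed level was 288 to 411 FPKM in the uninjected livers and 1188 to 2332 FPKM at day 45. Epcam, an epithelial adhesion molecule, stood at 0.963, 1.04 and 1.28 FPKM in the uninjected livers and at 10.7, 36.4 and 20.5 FPKM at day 45. The keratins Krt7 and Krt19 stood at most at 1.54 and 2.19 FPKM in the uninjected livers and at least at 3.94 and 5.78 FPKM at day 45. Krt18, which hepatocytes share, stood at 162.7, 103 and 115 FPKM in the uninjected livers and 313, 320.5 and 391.8 FPKM at day 45 (log2 fold change 1.44 ± 0.32 (SE), adjusted p = 0.0063). Sox9, the transcription factor of ductal cells, was at 1.82, 5.49 and 1.89 FPKM at day 45 and below 1.03 FPKM in the uninjected livers, and its call was lost without uninjected replicate A (adjusted p = 0.055), uninjected replicate C (adjusted p = 0.052) and day 45 replicate B (adjusted p = 0.059).

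Macrophage genes rose in both of their lists. Kupffer cells, the resident macrophages, had 12 of 15 tested markers called higher (median log2 fold change 1.33, 1.14 above that of all tested genes), and monocytes and recruited macrophages had 21 of 24 (median log2 fold change 1.72, 1.53 above that of all tested genes), or 15 of the 18 expressed in both groups. Clec4f, which marks Kupffer cells, stood at 60.0, 57.6 and 94.7 FPKM in the uninjected livers and at 160, 148 and 152 FPKM at day 45. Cd5l, a secreted scavenger protein, stood at 82.9, 62.8 and 129 FPKM in the uninjected livers and 232, 235 and 234 FPKM at day 45 (log2 fold change 1.41 ± 0.31 (SE), adjusted p = 0.0055). Marco, a scavenger receptor, rose by 2.67 ± 0.69 and C1qb, a complement component, by 1.67 ± 0.48. The spread of these markers among day 45 livers was small, with the exception of Marco. The Kupffer count was 6 without uninjected replicate B. The call of Marco was lost without uninjected replicate B (adjusted p = 0.059) and day 45 replicate B (adjusted p = 0.053), and that of C1qb in each fit without 1 liver other than uninjected replicate C or day 45 replicate A (adjusted p = 0.056 to 0.091).

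Among the markers of recruited cells, Ly6c2 stood at 1.25, 0.399 and 1.34 FPKM in the uninjected livers and at 10.53, 14.4 and 11.8 FPKM at day 45. Ccr2, the receptor that draws monocytes into tissue, stood at 0.481, 0.519 and 0.875 against 3.55, 6.68 and 4.17 FPKM. Trem2, a receptor of lipid-associated macrophages, rose from at most 1.14 to at least 4.96 FPKM. Ctsd, a lysosomal protease, was the most abundant gene of the list after Spp1 and did not pass the test, at 308, 269.9 and 306 FPKM in the uninjected livers and 387, 444 and 502 FPKM at day 45 (adjusted p = 0.085). Spp1 is in this list and in the ductal list, so its rise is counted in both.

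Most lymphocyte and neutrophil markers were too low to be tested. Only 3 of 11 B and plasma cell genes were tested, 2 of them, Igj and Cd79a, because of their day 45 level, so that no count is read from this list. Igj, the chain that joins polymeric antibodies, stood at 1.05, 0.534 and 0.621 FPKM in the uninjected livers and 66.2, 82.5 and 30.8 FPKM at day 45 (log2 fold change 5.03 ± 0.68 (SE), adjusted p = 0.00054), while Cd79b, part of the B cell receptor, rose by 1.27 ± 0.33, a call lost without uninjected replicate B (adjusted p = 0.059) and day 45 replicate B (adjusted p = 0.057). T and NK cell markers, of which 10 of 20 were tested, had 8 called higher (median log2 fold change 1.17, 0.98 above that of all tested genes), or 4 of the 5 expressed in both groups. Ccl5, a chemokine of cytotoxic cells, stood at 4.79, 1.25 and 4.66 FPKM in the uninjected livers and 21.3, 24.8 and 31.6 FPKM at day 45 (log2 fold change 2.66 ± 0.56 (SE), adjusted p = 0.0042), and Zap70, a T cell receptor kinase, at 10.7, 3.07 and 6.91 FPKM in the uninjected livers and 11.9, 13.3 and 6.79 FPKM at day 45 (adjusted p = 0.39). Of 12 neutrophil genes 4 were tested, 2 of them because of their day 45 level, and 3 were called higher. S100a8 and S100a9, which form calprotectin, rose by 2.57 ± 0.68 and 2.38 ± 0.56 on the log2 scale. The call of S100a8 was lost without uninjected replicate B (adjusted p = 0.063), day 45 replicate B (adjusted p = 0.053) and day 45 replicate C (adjusted p = 0.053). Cd3e and Cd8a, which define T cells, were too low to be tested, at no more than 2.06 FPKM in any liver.

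**Figure D3:**
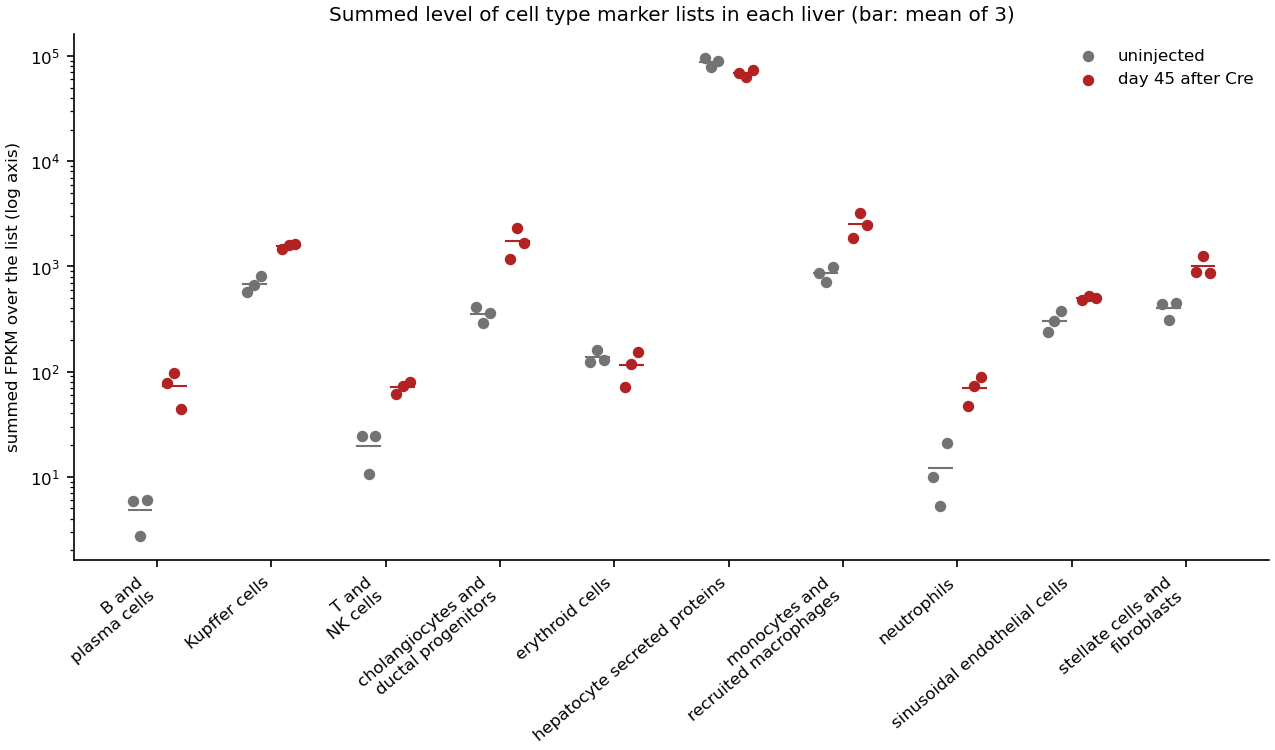
Summed FPKM over each list of cell type markers in each liver, on a log axis, with gray points for the 3 uninjected and red points for the 3 day 45 livers and bars for the means. Every day 45 liver lies above every uninjected liver for all lists except those of hepatocytes (15 genes never listed at 0) and erythroid cells.

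Genes of antigen presentation and many of the interferon response were called higher as well. All 11 tested genes of MHC class II, which presents antigen on macrophages, dendritic cells and B cells, were called higher (median log2 fold change 1.87, 1.69 above that of all tested genes), 7 of which were expressed in both groups. H2-Aa stood at 46.9, 38.4 and 109.8 FPKM in the uninjected livers and 181, 287 and 262 FPKM at day 45 (log2 fold change 2.02 ± 0.53 (SE), adjusted p = 0.014), and Cd74, the chaperone of the complex, rose by 2.23 ± 0.53. The count was 5 without uninjected replicate B or day 45 replicate B and 6 without uninjected replicate A, and the call of H2-Aa was lost without uninjected replicate A (adjusted p = 0.052), uninjected replicate B (adjusted p = 0.059) and day 45 replicate B (adjusted p = 0.059). Interferon-stimulated genes had 24 of 40 called higher (median log2 fold change 1.04, 0.85 above that of all tested genes), or 20 of the 36 expressed in both groups. Ifi27l2a stood at 27.97, 10.9 and 24.7 FPKM in the uninjected livers and 79.7, 152 and 94.8 FPKM at day 45 (log2 fold change 2.35 ± 0.59 (SE), adjusted p = 0.011). B2m, the light chain of MHC class I, stood at 2838, 2630.3 and 2919.5 FPKM in the uninjected livers and 3595, 4363 and 4679 FPKM at day 45 (log2 fold change 0.58 ± 0.19 (SE), adjusted p = 0.040). H2-K1, a heavy chain, did not pass the test (adjusted p = 0.37). The interferon count was 8 without uninjected replicate B or day 45 replicate B and 15 without day 45 replicate C, and 15 with median-centred libraries. The call of B2m was lost in each fit without 1 liver other than day 45 replicate A (adjusted p = 0.077 to 0.13), and that of Ifi27l2a without uninjected replicate B (adjusted p = 0.052) and day 45 replicate B (adjusted p = 0.057).

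Chemokines and their receptors had 20 of 24 tested members called higher and none lower (median log2 fold change 1.64, 1.45 above that of all tested genes), and 11 of the 14 expressed in both groups. The largest rise was that of Ccl5. Cxcl12, made by stromal cells, stood at 189, 123 and 189 FPKM in the uninjected livers and 320.0, 307 and 228 FPKM at day 45 (log2 fold change 0.78 ± 0.25 (SE), adjusted p = 0.039), a call lost in each fit without 1 liver other than day 45 replicate C (adjusted p = 0.051 to 0.16). Ccl9, a chemokine of myeloid cells, did not pass the test, at 37.01, 24.8 and 40.9 FPKM in the uninjected livers and 24.96, 29.1 and 12.6 FPKM at day 45 (adjusted p = 0.17). Sinusoidal endothelial markers had 9 of 25 members called higher and, erythroid cells apart, the lowest median of the non-parenchymal lists (median log2 fold change 0.58, 0.39 above that of all tested genes). Cd34, a marker of vascular endothelium and of capillarised sinusoids, stood at 1.39, 0.829 and 1.203 FPKM in the uninjected livers and 6.03, 21.1 and 8.65 FPKM at day 45 (log2 fold change 2.43 ± 0.36 (SE), adjusted p = 0.00084). Among the defining sinusoidal markers, Stab2, Lyve1 and Clec4g did not pass the test (adjusted p = 0.31, 0.30 and 0.072), and Fcgr2b did not either (adjusted p = 0.063). Erythroid genes gave 0 calls by limma among 5, and 0 at an unadjusted p below 0.05.

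Cytoskeletal genes, which macrophages, stromal cells and ductal cells express more highly than hepatocytes, had 23 of 34 members called higher and none lower (median log2 fold change 1.21, 1.02 above that of all tested genes). Tmsb4x, which binds actin monomers, stood at 473, 254 and 439 FPKM in the uninjected livers and 860.3, 1268 and 961 FPKM at day 45 (log2 fold change 1.44 ± 0.28 (SE), adjusted p = 0.0031), and Capg, an actin capping protein of macrophages, rose by 2.35 ± 0.41. Pfn1, profilin, stood at 262, 185 and 183 FPKM in the uninjected livers and 271, 306 and 278 FPKM at day 45 (adjusted p = 0.18). Of 16 annexins and S100 proteins, 10 were called higher and 1 lower. S100a4, of fibroblasts and macrophages, stood at 2.92, 0.654 and 2.26 FPKM in the uninjected livers and 14.1, 17.4 and 20.3 FPKM at day 45 (log2 fold change 2.71 ± 0.43 (SE), adjusted p = 0.0011). S100a1 fell, at 251, 229 and 181 FPKM in the uninjected livers and 117, 102 and 148 FPKM at day 45 (log2 fold change -0.85 ± 0.24 (SE), adjusted p = 0.021), a call lost in each fit without 1 liver other than uninjected replicate C or day 45 replicate C (adjusted p = 0.056 to 0.10), and S100a10 did not pass the test (adjusted p = 0.67). YAP and TEAD targets had 10 of 16 called higher (median log2 fold change 0.84), or 8 of the 14 expressed in both groups, with a count of 5 without day 45 replicate B. Immediate early genes had 5 of 16 called higher (median log2 fold change 0.74), or 3 of the 14 expressed in both groups (median 0.59), near the 22.9% of all tested genes, with counts of 1 without uninjected replicate B or day 45 replicate B, 2 without uninjected replicate C and 3 without uninjected replicate A or day 45 replicate C, and 2 with median-centred libraries. Their median was 0.02 without uninjected replicate B and 0.42 without day 45 replicate B. The marker lists above moved with these groups, and their part in the cytoskeletal and matrix calls was not tested.

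**Figure D4:**
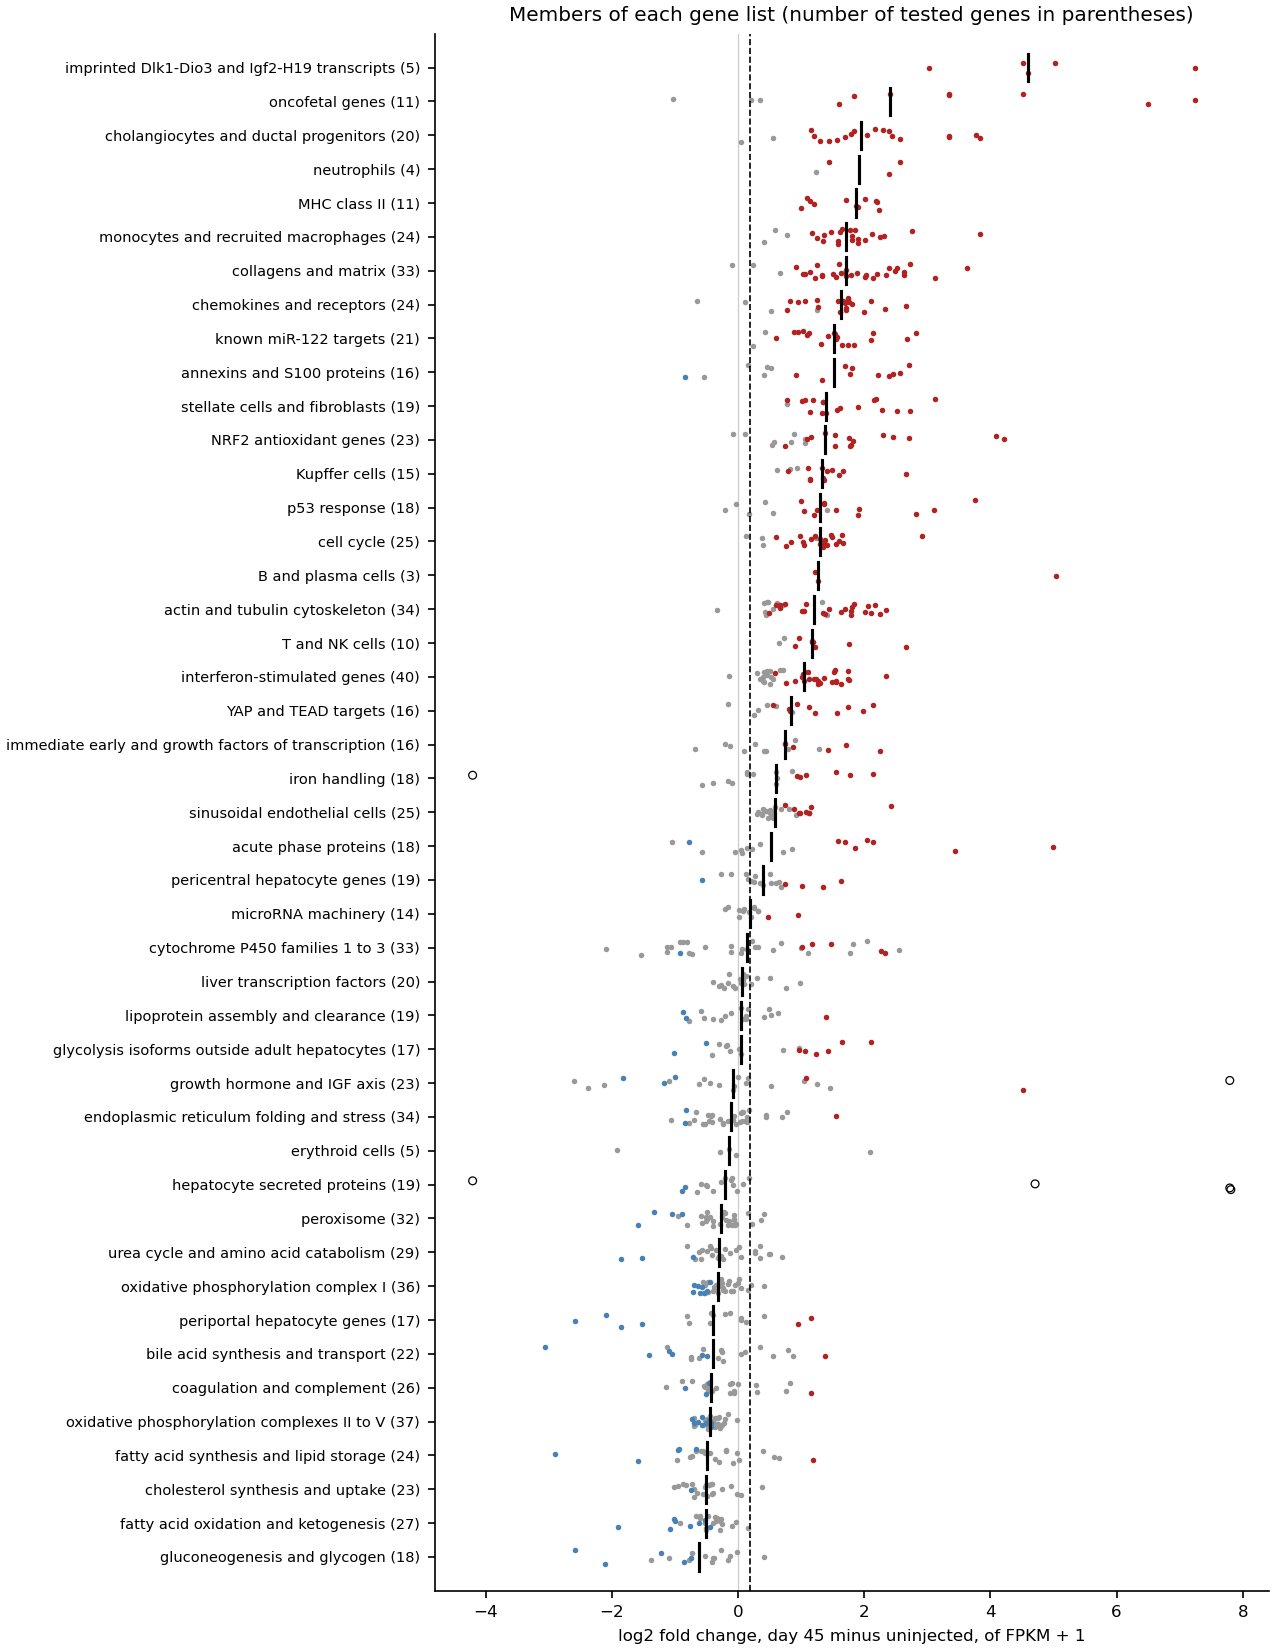
Log2 fold change of FPKM + 1 of each tested member of the 45 gene lists, sorted by list median (black bar), with called higher genes in red, called lower in blue, others in gray and genes listed at 0 in some livers as open circles. Imprinted, oncofetal and ductal genes lie highest (medians 4.59, 2.41 and 1.95), but all 5 imprinted, 4 of 11 oncofetal and 7 of 20 ductal genes were tested because of their day 45 level. Lists of fatty acid, cholesterol and bile acid metabolism lie below the dashed line of all tested genes (0.19), and gluconeogenesis lies lowest (-0.62).

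The falls were fewer, and the largest held enzymes and a transporter beside receptors and other proteins. The 15 largest were those of Mup17, 2810007J24Rik, Slco1a1, Scd1, Ces3b, Gpr110, G6pc, Nlrp12, Hsd11b1, Amy1, Csrp3, Amdhd1, Ppp1r3b, Pigr and Tymp. Amy1, which encodes amylase (chr3:113258870-113280668), stood at 184, 191 and 177 FPKM in the uninjected livers and 34.4, 45.6 and 40.5 FPKM at day 45 (log2 fold change -2.18 ± 0.27 (SE), adjusted p = 0.00036). Hsd11b1, which regenerates active glucocorticoid in the liver (chr1:195047835-195090239), stood at 739, 574 and 784 FPKM in the uninjected livers and 201, 145 and 106 FPKM at day 45 (log2 fold change -2.24 ± 0.42 (SE), adjusted p = 0.0023). Pigr, the receptor that carries polymeric antibodies across epithelia, stood at 486, 446 and 570.4 FPKM in the uninjected livers and 174, 108 and 84.7 FPKM at day 45 (log2 fold change -2.08 ± 0.36 (SE), adjusted p = 0.0017). In all 3 genes the highest day 45 liver stood at under 0.5 of the lowest uninjected one.

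Gpr110, an adhesion receptor, stood at 5.58, 12.9 and 12 FPKM in the uninjected livers and 0.229, 1.102 and 0.792 FPKM at day 45 (log2 fold change -2.67 ± 0.27 (SE), adjusted p = 0.00013), and Ces3b, a carboxylesterase, at 218, 281 and 198 FPKM in the uninjected livers and 50.5, 22.3 and 30.5 FPKM at day 45 (log2 fold change -2.78 ± 0.47 (SE), adjusted p = 0.0014). Nlrp12, a pattern recognition receptor, fell by 2.25 ± 0.35 on the log2 scale. Csrp3, a LIM protein of muscle, fell by 2.15 ± 0.51, and Tymp, thymidine phosphorylase, fell by 2.08 ± 0.28. None of the 15 passed the test between day 21 and day 45. 2810007J24Rik, at 315, 512 and 352 FPKM in the uninjected livers and 59.2, 22.9 and 66.8 FPKM at day 45, was the least secure of the 15 (log2 fold change -3.07 ± 1.06 (SE), adjusted p = 0.049). Its call was lost in every fit without 1 liver (adjusted p = 0.075 to 0.18).

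Some of the genes with large negative fold changes are known to differ between male and female mouse livers. Mup17, a major urinary protein, stood at 69.3, 2034 and 175 FPKM in the uninjected livers and 6.52, 4.98 and 6.49 FPKM at day 45 (log2 fold change -5.40 ± 1.08 (SE), adjusted p = 0.0033). Uninjected replicate B, which held Y-linked transcripts, was more than 10 times above the other uninjected livers, and the Mup genes are so alike that reads may be shared among them. Slco1a1, an organic anion transporter, stood at 39.8, 188 and 70.2 FPKM in the uninjected livers and 9.64, 2.47 and 24.9 FPKM at day 45 (log2 fold change -3.06 ± 0.91 (SE), adjusted p = 0.026), and its call was lost in each fit without 1 liver other than uninjected replicate A or day 45 replicate C (adjusted p = 0.055 to 0.13). With the sex of the liver as a term, an alternative chosen after the data were seen, the adjusted p was 0.0026 for Mup17 and 0.00084 for Slco1a1. That fit also called Mup3, at 3134, 9420.1 and 2880.2 FPKM in the uninjected livers and 878, 403 and 1706 FPKM at day 45, lower (adjusted p = 0.0018 against 0.054 without the term). Among 16 genes of this kind, picked with their values in view, 7 were called lower and 1 higher with the term, against 2 lower without it, and 8 were not called with it. Hsd3b5, Elovl3 and Cyp2c40 had adjusted p of 0.015, 0.040 and 0.0036 with the term and of 0.36, 0.37 and 0.41 without it, with log2 fold changes of -2.60, -2.12 and -2.10. The 1 called higher was Cyp2d9, at 17.9, 1013 and 30.6 FPKM in the uninjected livers and 102, 193 and 1322 FPKM at day 45 (log2 fold change 1.81, adjusted p = 0.042 with the term and 0.41 without). Mup20 and Cyp2a4 did not pass with the term (log2 fold change 1.26 and 1.77, adjusted p = 0.063 and 0.17), nor did Cyp4a12a and Cyp2b13 (0.07 and -0.11, adjusted p = 0.89 and 0.96). In all, 2721 genes were called higher and 437 lower with the term.

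Genes of glucose output and lipid synthesis held deep falls. Gluconeogenesis and glycogen genes gave the lowest list median, with 5 of 18 called lower and none higher (median log2 fold change -0.62, 0.81 below that of all tested genes). G6pc, the catalytic subunit of glucose-6-phosphatase, stood at 228, 463 and 496 FPKM in the uninjected livers and 80.4, 54.9 and 51.99 FPKM at day 45 (log2 fold change -2.59 ± 0.59 (SE), adjusted p = 0.0065). Ppp1r3b, which targets protein phosphatase 1 to glycogen, fell by 2.11 ± 0.41. The count was 3 without uninjected replicate B or day 45 replicate B. Pck1, the other gatekeeper of gluconeogenesis, did not pass the test, at 891, 832 and 745 FPKM in the uninjected livers and 681, 1111 and 1716 FPKM at day 45 (adjusted p = 0.55). Fatty acid synthesis and lipid storage had 5 of 24 called lower and 1 higher (median log2 fold change -0.49, 0.68 below that of all tested genes). Scd1, the stearoyl-CoA desaturase, stood at 589, 2419 and 1494 FPKM in the uninjected livers and 98.2, 144 and 353 FPKM at day 45 (log2 fold change -2.91 ± 0.57 (SE), adjusted p = 0.0030). Cidec, a lipid droplet protein, was the 1 called higher, at 0.197, 1.19 and 0.201 FPKM in the uninjected livers and 3.13, 2.16 and 1.87 FPKM at day 45 (log2 fold change 1.19 ± 0.38 (SE), adjusted p = 0.034), a call lost in each fit without 1 liver other than uninjected replicate B (adjusted p = 0.054 to 0.12). It was tested because of its day 45 level, and 0 of the 23 members expressed in both groups were called higher. Plin2, which coats the droplets, stood at 274, 387 and 439.5 FPKM in the uninjected livers and 324, 291 and 261 FPKM at day 45 (adjusted p = 0.53). The count of 5 lower became 3 without uninjected replicate A, uninjected replicate B, day 45 replicate B or day 45 replicate C, and 9 with median-centred libraries.

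Fatty acid oxidation and ketogenesis, controlled by PPAR-alpha, had 8 of 27 called lower and none higher (median log2 fold change -0.51, 0.70 below that of all tested genes). Vnn1, a pantetheinase and sensitive PPAR-alpha target, stood at 35.8, 23.5 and 28.3 FPKM in the uninjected livers and 13.4, 8.28 and 2.72 FPKM at day 45 (log2 fold change -1.91 ± 0.49 (SE), adjusted p = 0.012). The most abundant members, Fabp1 and Acaa2, did not pass the test (log2 fold change -0.60 and -0.52, adjusted p = 0.21 and 0.080). The count was 3 without uninjected replicate C or day 45 replicate B and 4 without uninjected replicate A or day 45 replicate C. Cholesterol genes had 1 of 23 called lower, or 2 with median-centred libraries and 3 with the sex term (median log2 fold change -0.50, 0.69 below that of all tested genes). The 1 gene was Ebp, a sterol isomerase, at 249, 193 and 232 FPKM in the uninjected livers and 138, 118 and 146 FPKM at day 45 (log2 fold change -0.74 ± 0.20 (SE), adjusted p = 0.018). The call of Ebp was lost without uninjected replicate A (adjusted p = 0.069), uninjected replicate C (adjusted p = 0.056) and day 45 replicate B (adjusted p = 0.084). The median rested on single livers: it was -0.18 without uninjected replicate A, -0.82 without uninjected replicate B, -0.80 without day 45 replicate A and -0.32 without day 45 replicate C, and day 45 replicate A alone had a median of 0.011 against the uninjected mean. Sc5d, an abundant member, did not pass the test (-0.64, adjusted p = 0.21).

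Lipoprotein genes were divided, with 1 of 19 called higher and 2 lower, and the count of lower genes was 0 without uninjected replicate A, uninjected replicate C, day 45 replicate B or day 45 replicate C and 1 without uninjected replicate B or day 45 replicate A, but 4 with median-centred libraries and 4 with the sex term. Apoc2, the activator of lipoprotein lipase, stood at 495, 345 and 390.3 FPKM in the uninjected livers and 1144, 1088 and 972 FPKM at day 45 (log2 fold change 1.39 ± 0.18 (SE), adjusted p = 0.00046), with tight groups. Apoe and Apoa5 did not pass the test (adjusted p = 0.93 and 0.30). Bile acid synthesis and transport had 6 of 22 called lower and 1 higher (median log2 fold change -0.40, 0.59 below that of all tested genes). Slc10a1, which takes bile acids up from blood, stood at 705, 532 and 633 FPKM in the uninjected livers and 342, 217 and 168 FPKM at day 45 (log2 fold change -1.41 ± 0.30 (SE), adjusted p = 0.0046), and Slc27a5, which activates them for conjugation, at 746, 623 and 738 FPKM in the uninjected livers and 345, 304 and 330.4 FPKM at day 45 (log2 fold change -1.10 ± 0.20 (SE), adjusted p = 0.0022). Abcc4, which exports them back to blood, was the 1 called higher, at 0.465, 0.459 and 0.705 FPKM in the uninjected livers and 2.06, 4.38 and 2.86 FPKM at day 45 (log2 fold change 1.37 ± 0.19 (SE), adjusted p = 0.00055). It too was tested because of its day 45 level, and 0 of the 20 members expressed in both groups were called higher. The count of 6 became 2 without uninjected replicate B, uninjected replicate C, day 45 replicate A or day 45 replicate B and 3 without uninjected replicate A.

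Amino acid breakdown and the urea cycle had 3 of 29 called lower (median log2 fold change -0.30, 0.49 below that of all tested genes, and a median of -0.20 without day 45 replicate A). Hal, which opens histidine breakdown (chr10:92951513-92979488), stood at 119, 150.5 and 199.8 FPKM in the uninjected livers and 48.9, 47.5 and 31.5 FPKM at day 45 (log2 fold change -1.85 ± 0.35 (SE), adjusted p = 0.0027). Amdhd1, a later enzyme of the same pathway and its neighbour on the chromosome (chr10:92986083-93002778), fell as well, at 77.7, 89.6 and 103 FPKM in the uninjected livers and 17.3, 25.2 and 17.3 FPKM at day 45 (log2 fold change -2.13 ± 0.21 (SE), adjusted p = 0.00010). The abundant Hpd and Mat1a did not pass the test (adjusted p = 0.58 and 0.60). By zone, periportal genes had 4 of 17 called lower and 2 higher (median log2 fold change -0.40, 0.59 below that of all tested genes, and -0.26 without day 45 replicate B) and pericentral genes 4 of 19 higher and 1 lower (median log2 fold change 0.40, 0.21 above that of all tested genes), and the 21.1% called higher is near the 22.9% of all tested genes. Oat, ornithine aminotransferase of pericentral cells, stood at 449, 412 and 719 FPKM in the uninjected livers and 1710.2, 1909 and 1229 FPKM at day 45 (log2 fold change 1.64 ± 0.27 (SE), adjusted p = 0.0013), and Cyp27a1, a bile acid enzyme, fell by 0.58 ± 0.19, a call lost in each fit without 1 liver other than day 45 replicate C (adjusted p = 0.071 to 0.18). The pericentral count of rises was 2 without uninjected replicate B or day 45 replicate B, and the periportal one 0 without uninjected replicate A, uninjected replicate C or day 45 replicate B and 1 without day 45 replicate C.

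The medians of the respiratory chain lists were below 0, with modest changes in single genes. Complex I had 8 of 36 called lower (median log2 fold change -0.32, 0.51 below that of all tested genes) and complexes II to V 10 of 37 (median log2 fold change -0.44, 0.63 below that of all tested genes), with none higher. Ndufa5, of complex I, stood at 220.3, 137 and 133 FPKM in the uninjected livers and 93.6, 89.2 and 107 FPKM at day 45 (log2 fold change -0.71 ± 0.20 (SE), adjusted p = 0.020), and Uqcrh, of complex III, at 731, 504 and 461 FPKM in the uninjected livers and 327, 320.0 and 359 FPKM at day 45 (log2 fold change -0.72 ± 0.19 (SE), adjusted p = 0.014). The complex I count was 0 without uninjected replicate A or day 45 replicate B, 1 without day 45 replicate A and 2 without uninjected replicate B, and its median -0.18 without uninjected replicate A. That of complexes II to V was 1 without uninjected replicate A or day 45 replicate B, 2 without day 45 replicate A, 4 without uninjected replicate C and 5 without uninjected replicate B. The call of Ndufa5 was lost without uninjected replicate A (adjusted p = 0.078), day 45 replicate A (adjusted p = 0.053) and day 45 replicate B (adjusted p = 0.081), and that of Uqcrh without uninjected replicate A (adjusted p = 0.057) and day 45 replicate B (adjusted p = 0.056). With median-centred libraries the counts were 11 and 19. Ndufa4 and Atp5b stood just inside the threshold (adjusted p = 0.0496 and 0.041). They lost the call in every fit without 1 liver, with adjusted p up to 0.18 and 0.15. Ndufa3 and Atp5g3 did not pass the test (adjusted p = 0.37 and 0.24). Of 32 peroxisomal genes 4 were called lower.

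Glycolysis isoforms that adult hepatocytes use little had 6 of 17 called higher and 2 lower, with Aldoa as the largest rise. The count of 2 lower became 0 without day 45 replicate B and 1 without uninjected replicate A, uninjected replicate B or day 45 replicate A. Pdk1, a kinase that inhibits pyruvate dehydrogenase, fell, at 25.2, 19.2 and 25.5 FPKM in the uninjected livers and 15.6, 9.32 and 8.98 FPKM at day 45 (log2 fold change -1.01 ± 0.25 (SE), adjusted p = 0.011), a call lost without day 45 replicate B (adjusted p = 0.056). Ldha and Tpi1 did not pass the test (adjusted p = 0.91 and 0.30).

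The lists of hepatocyte identity were counted next. None of 20 liver transcription factors was called by limma in either direction (median log2 fold change 0.06, and from -0.04 to 0.09 without 1 liver), with 0 at an unadjusted p below 0.05. The count was 0 in each of the 6 fits without 1 liver, and 1 higher with only days 0, 21 and 45 and with the replicate block. Hnf4a, the central hepatocyte factor, stood at 179, 201 and 201 FPKM in the uninjected livers and 164, 178 and 178 FPKM at day 45 (adjusted p = 0.56), and Xbp1, a regulator of secretory capacity, at 147, 206 and 162 FPKM in the uninjected livers and 210.3, 158 and 170.4 FPKM at day 45. Of 19 tested genes for secreted hepatocyte proteins 2 were called lower (10.5%, against 3.09% of all tested), a count that became 0 without day 45 replicate B and 1 without uninjected replicate A, uninjected replicate C, day 45 replicate A or day 45 replicate C, and 4 with median-centred libraries. Apoa2, the second apolipoprotein of HDL, stood at 21203, 14577 and 16278 FPKM in the uninjected livers and 10506, 7366 and 10328 FPKM at day 45 (log2 fold change -0.88 ± 0.30 (SE), adjusted p = 0.044), a call lost in every fit without 1 liver (adjusted p = 0.060 to 0.18), and Apoc1 did not pass the test (adjusted p = 0.48). The 1 gene of this list called higher was Serpina3k, which was listed at 0 in uninjected replicates A and B, at 7562 FPKM in replicate C and at 5992, 3207 and 4279.6 FPKM at day 45, so its call rests on zeros, and it was lost in each fit without 1 liver other than uninjected replicate C (adjusted p = 0.079 to 0.15). Summed over the 15 members never at 0, the list came to 79157 to 96619 FPKM in the uninjected livers and 62659 to 73594 FPKM at day 45.

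Coagulation and complement genes had 3 of 26 called lower and 1 higher (median log2 fold change -0.43, 0.62 below that of all tested genes). Plg, plasminogen, stood at 1404, 1159 and 1386 FPKM in the uninjected livers and 818, 739 and 649 FPKM at day 45 (log2 fold change -0.84 ± 0.16 (SE), adjusted p = 0.0028). Mbl2, a mannose-binding lectin, was called higher (log2 fold change 1.16 ± 0.39 (SE), adjusted p = 0.046), a call lost in each fit without 1 liver other than uninjected replicate A (adjusted p = 0.053 to 0.18). C3 and Serpinc1 did not pass the test (adjusted p = 0.51 and 0.16). The count of 3 lower became 1 without uninjected replicate A, uninjected replicate C, day 45 replicate A or day 45 replicate B, 7 with median-centred libraries and 8 with the sex term. Acute phase proteins had 7 of 18 called higher and 1 lower. Lcn2 was the largest rise, and Itih4, at 848, 608 and 867 FPKM in the uninjected livers and 481, 438 and 425 FPKM at day 45, the 1 fall (log2 fold change -0.77 ± 0.25 (SE), adjusted p = 0.036). Its call was lost in each fit without 1 liver other than uninjected replicate B (adjusted p = 0.060 to 0.12). Hp, haptoglobin, did not pass the test, nor did Hamp, the iron hormone hepcidin (adjusted p = 0.42 and 0.13).

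Of 18 genes of iron handling 6 were called higher and none lower (median log2 fold change 0.60, 0.42 above that of all tested genes). Id1, a target of the BMP signal that controls hepcidin, stood at 12.9, 4.51 and 4.38 FPKM in the uninjected livers and 28.5, 33.2 and 33.8 FPKM at day 45 (log2 fold change 2.14 ± 0.43 (SE), adjusted p = 0.0037), and Hfe2, the BMP co-receptor hemojuvelin and a known miR-122 target, at 39.99, 30.4 and 49.7 FPKM in the uninjected livers and 111, 118 and 123 FPKM at day 45 (log2 fold change 1.55 ± 0.17 (SE), adjusted p = 0.00022). Ftl1, the ferritin light chain, did not pass the test (adjusted p = 0.22). In the growth hormone and IGF list 3 of 23 were called higher, among them Igf2 and Serpina3k, and 3 lower. Egfr, the receptor of epidermal growth factor, stood at 70.1, 327 and 119 FPKM in the uninjected livers and 40.98, 33.3 and 42.4 FPKM at day 45 (log2 fold change -1.83 ± 0.52 (SE), adjusted p = 0.021), with uninjected replicate B far above the others. Its call was lost without uninjected replicate B (adjusted p = 0.084) and day 45 replicate B (adjusted p = 0.079), and the count of 3 lower became 0 without day 45 replicate B and 1 without uninjected replicate B or uninjected replicate C, 5 with median-centred libraries and 6 with the sex term. Endoplasmic reticulum genes had 1 of 34 called higher and 2 lower, and the count of lower genes was 0 without uninjected replicate B, day 45 replicate B or day 45 replicate C, 1 without day 45 replicate A and 6 without uninjected replicate A, and 6 with median-centred libraries. The microRNA machinery had 2 of 14 called higher (14.3%, against 22.9% of all tested genes) and none lower. Its median log2 fold change was 0.19, as for all tested genes. The count was 1 higher in every fit without 1 liver, and 1 higher and 1 lower with median-centred libraries.

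Day 45 was also compared with day 21 in the same fit, so that the uninjected livers do not enter the difference but share the estimate of the spread and the choice of tested genes. 34 genes were higher at day 45 (0.304% of all tested) and 0 lower (0.0%), with 1650 higher and 113 lower at an unadjusted p below 0.05 by limma. Since the filter on low values had not used day 21, the comparison was repeated, after the data were seen, on the 11323 genes of at least 1 FPKM on average over days 21 and 45, with 34 higher and 0 lower by limma (1686 and 118 at an unadjusted p below 0.05). Rian, Mirg, Tspan8, Mmp7, Spp1, Epcam and Apoc2 were among them. Rian stood at 0.952, 1.87 and 5.803 FPKM at day 21 (log2 difference 3.10 ± 0.56 (SE), adjusted p = 0.043) and Tspan8 at 4.19, 5.100 and 7.05 FPKM (2.63 ± 0.42 (SE), adjusted p = 0.028). H19 and Meg3 also stood lower at day 21, at 11.7, 42.9 and 3.92 and 1.19, 2.91 and 8.31 FPKM, but did not pass this test (adjusted p = 0.059 and 0.054). The result rests on single livers: the 34 became 0 without day 45 replicate B or day 21 replicate C, 1 without day 45 replicate C or day 21 replicate B, 2 without day 21 replicate A, 6, 9 and 10 without uninjected replicates A, B and C, and 160 without day 45 replicate A.

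The list medians at both times, against the same uninjected livers, are given side by side. The MHC class II list had a median log2 fold change of 1.91 at day 21 and 1.87 at day 45, the T and NK list 1.48 and 1.17, and the p53 list 1.09 and 1.31. Known miR-122 targets stood at 1.12 and 1.53. Ductal genes stood at 0.62 and 1.95, matrix genes at 0.89 and 1.70, and cell cycle genes at 0.42 and 1.30. Members were tested by their day 0 and day 45 levels, not those of day 21. No test was made of these list differences, and the 2 columns share their control livers.

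**Figure D5:**
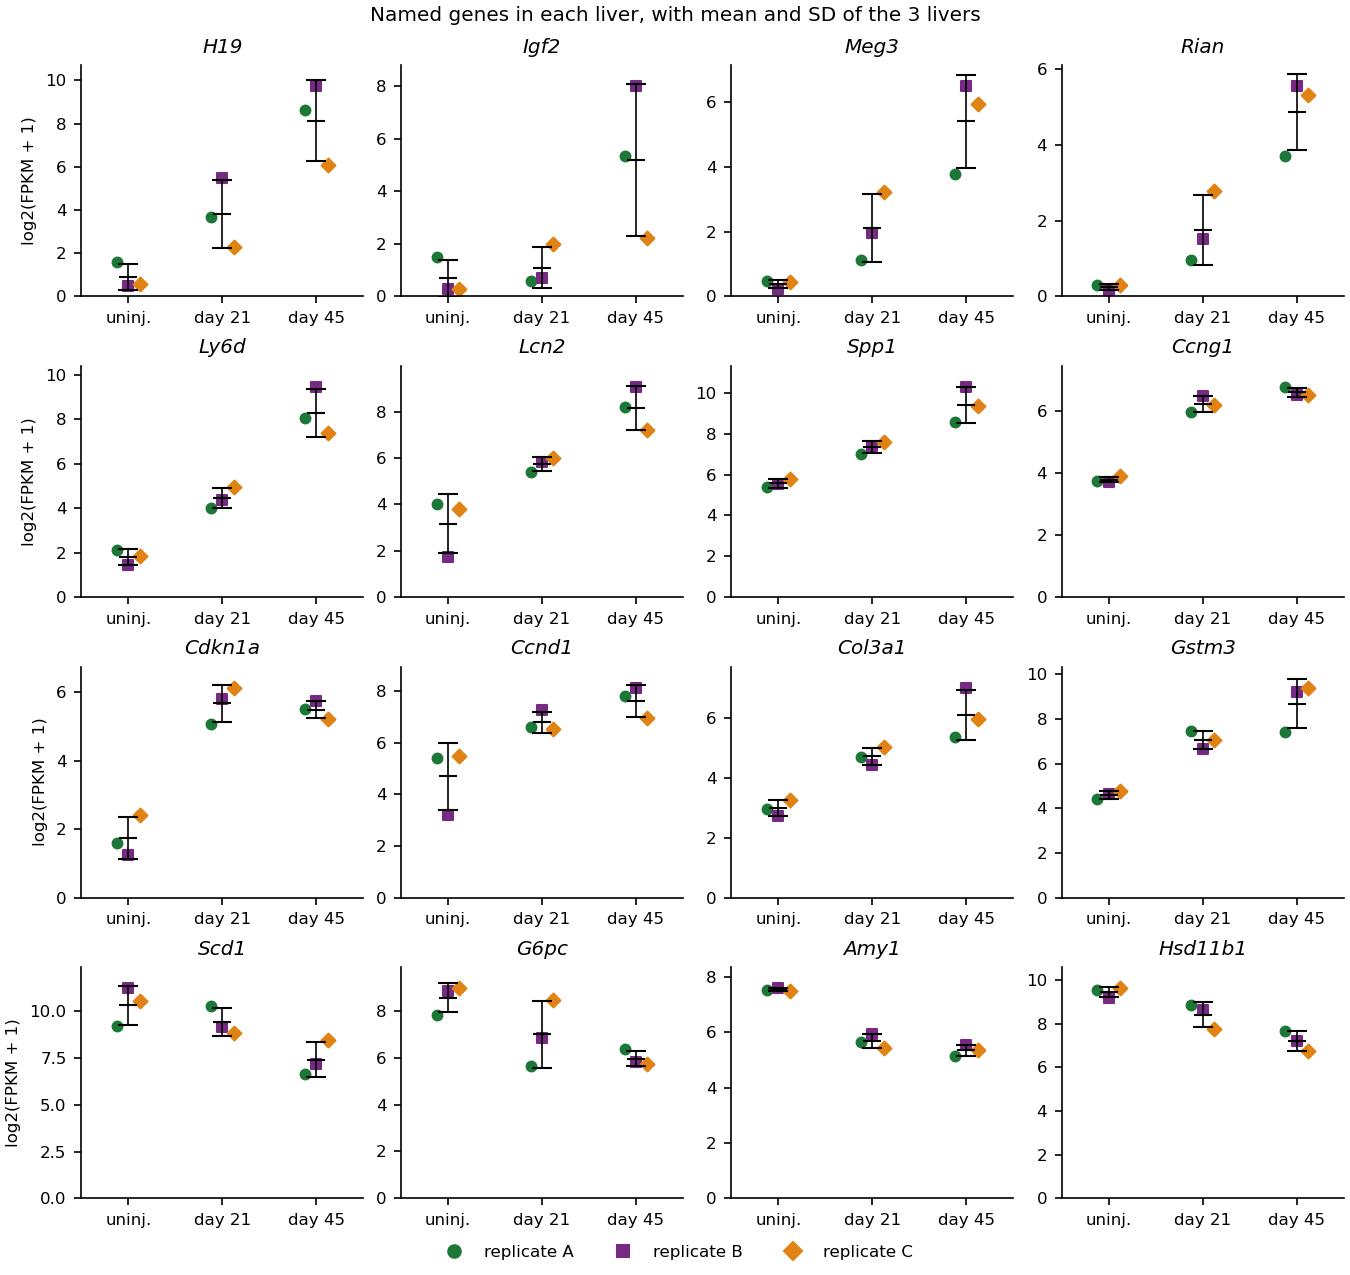
log2(FPKM + 1) of 16 named genes in each uninjected, day 21 and day 45 liver, with mean and SD of 3 livers as black bars. In Cdkn1a and Amy1 the day 21 livers overlap those of day 45, and in H19, Meg3, Rian and Spp1 they lie between the uninjected and the day 45 livers.

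Predicted targets of microRNAs that the study examined on these samples were counted last. The study took the targets from TargetScan and plotted those above 1 FPKM. Of 129 predicted miR-122 targets 62 were called higher and none lower (median log2 fold change 0.59, 0.40 above that of all tested genes) and the count was 38 without day 45 replicate B. Predicted targets of let-7, miR-21, miR-30, miR-410 and miR-483 had medians of 0.15, 0.15, 0.17, 0.16 and 0.09, against 0.19 for all tested genes. The differences were -0.04, -0.04, -0.02, -0.03 and -0.10 and were not tested. The 0.19 also covers 818 genes tested because of their day 45 level, and these lists hold 2, 0, 3, 0 and 1 of that kind. In the same order 112 of 638 (17.6%), 32 of 193 (16.6%), 152 of 822 (18.5%), 64 of 380 (16.8%) and 9 of 64 (14.1%) were called higher, and 7, 3, 14, 1 and 0 lower. Among all tested genes 22.9% were called higher and 3.09% lower. With median-centred libraries 70, 18, 94, 35 and 6 were called higher and 30, 10, 34, 7 and 1 lower. The centred medians were -0.05, -0.05, -0.04, -0.04 and -0.11, and that of all tested genes -0.013. Without day 45 replicate B the medians were 0.10, 0.08, 0.10, 0.10 and 0.06, and that of all tested genes 0.15, and the counts called higher 65, 16, 91, 31 and 6. Among single genes that the study examined, Nr6a1, an orphan nuclear receptor, stood at 2.11, 2.86 and 2.88 FPKM in the uninjected livers and 1.37, 1.56 and 1.56 FPKM at day 45 (log2 fold change -0.53 ± 0.18 (SE), adjusted p = 0.053), and Pdcd4, an inhibitor of translation, at 34.6, 51.8 and 49.8 FPKM in the uninjected livers and 27.7, 30.2 and 26.4 FPKM at day 45 (log2 fold change -0.65 ± 0.29 (SE), adjusted p = 0.12). Neither passed the test, although the groups did not overlap in either, and both passed it with median-centred libraries (adjusted p = 0.011 and 0.044). Srsf7 and Stag2 stood at 19.1, 21.7 and 14.03 and 13.2, 15.1 and 11.98 FPKM at day 45 (adjusted p = 0.81 and 0.95). Alpk2, the neighbour of the miR-122 gene, was at most 0.020 FPKM in all 6 livers, and Trf was listed at 0 in 5 of them.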

How the data were processed

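RNA-seq libraries of poly-A RNA from 14 livers were used, of which the 3 uninjected and 3 day 45 livers are compared here. The authors aligned paired reads to mm9 with TopHat and deposited FPKM from Cufflinks 2.2.1, with upper-quartile scaling and a mask over rRNA, snoRNA and mitochondrial genes. The deposited microRNA values are RPM (reads scaled to library size) with 1 added, from Bowtie 0.12.7. The added 1 was removed. Rows of 1 symbol were summed (22308 rows, 21888 symbols). FPKM hold no counts, so limma 3.58.1 in R 4.3.3 (lmFit, eBayes with trend) was run on log2(FPKM + 1) of the genes averaging 1 FPKM or more in the 6 livers, in 1 fit of 14 livers in 5 groups (day 0, day 21, day 45, days 100 and 200 together, germline knockout), which share the estimate of the spread. Fold changes are on the log2(FPKM + 1) scale and understate those of low genes. p-values were adjusted by Benjamini-Hochberg over all tested genes, with a threshold of 0.05. Each library is 1 mouse.

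Genes named are the 15 largest rises and the 15 largest falls among called genes whose groups do not overlap, up to 4 members of each list described (largest called rise, largest called fall, 2 highest mean FPKM), all tested known miR-122 targets, the imprinted transcripts and the genes the study names. The defining cell type markers are named besides them, and the clock and sex-dependent genes outside that rule were picked with their values in view. The members and the 45 lists were chosen with earlier results of these data known. Loci are those of the deposited table, whose starts count from 0, with 1 added. Predicted targets are symbols from a supplement of the study. Seed matches were read with Python 3.11.15 from the GENCODE vM1 transcripts and checked against the mm9 genome. The steps between low FPKM values of genes with 1 transcript gave the rough depths. The sequence of miR-122 itself and some genes that the rule selects are not reported here. The fit was also run on simulated data with known changes, whose outcome is not reported here. Alternatives were a pseudocount of 0.1 FPKM, a filter of 5 FPKM or none, median-centred libraries, an equal FPKM sum, only the 6 livers, only days 0, 21 and 45, a replicate block, symbols with 1 row, each liver left out and, chosen after the data were seen, a filter on days 21 and 45 and the left-out uninjected and day 21 livers for the comparison with day 21, the sex of the liver as a term and only the 10 livers with Xist.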

Additional observations from a re-analysis of the deposited data

Results flagged for a closer look

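Genes named above that differed between day 45 and day 21 by limma (Benjamini-Hochberg adjusted p below 0.05) were all higher at day 45. The log2 difference, day 45 minus day 21, with its SE, was 3.10 ± 0.56 for Rian (adjusted p = 0.043), 2.63 ± 0.42 for Tspan8 (adjusted p = 0.028), 2.06 ± 0.36 for Spp1 (adjusted p = 0.042), 2.46 ± 0.39 for Mmp7 (adjusted p = 0.028), 1.00 ± 0.18 for Apoc2 (adjusted p = 0.043), 2.13 ± 0.34 for Epcam (adjusted p = 0.028) and 2.37 ± 0.38 for Mirg (adjusted p = 0.028), with 3 mice at each time. In Apoc2 the day 21 livers stood at 547, 553 and 499 FPKM and the day 45 livers at 1144, 1088 and 972 FPKM, which do not overlap. Mirg stood at 0.169, 0.388 and 1.602 FPKM at day 21 and at 3.56, 12.4 and 8.45 FPKM at day 45. Epcam stood at 3.25, 3.71 and 4.65 FPKM at day 21 and at 10.7, 36.4 and 20.5 FPKM at day 45. Mmp7 stood at 1.99, 0.969 and 4.103 FPKM at day 21 and at 9.99, 30.1 and 13.6 FPKM at day 45. Without day 45 replicate B or day 21 replicate C no gene passed this test.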

How the results depend on the processing

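The counts depended on the livers and the scaling more than the directions did. Of the 103 named genes that were called, 71 kept the call in all 6 fits without 1 liver and 32 lost it in at least 1. Main counts were 2555 higher, 345 lower and 34 between days 45 and 21. A filter of 5 FPKM gave 1065 higher, a median of 0.11 and 7 against day 21, and no filter 3952, and 8 against day 21 with 1 lower. Median-centred libraries gave 1696 higher, 715 lower, a median of -0.013 and 15 against day 21, and an equal FPKM sum 15. A pseudocount of 0.1 FPKM gave 58. Only the 6 livers gave 564 lower, and only days 0, 21 and 45 gave 627 lower, with 520 higher and 28 lower than day 21. Chosen after the data were seen, the sex term gave 63 higher and 4 lower than day 21, and the 10 livers with Xist 544 lower at day 45 and 52 higher and 11 lower than day 21. Without 1 liver the counts ran from 1584 to 2361 higher, 150 to 263 lower and 0 to 160 against day 21, the median from 0.15 to 0.22, and the log2 miR-122 share from -6.81 to -5.97. The replicate block gave 550 lower and 2 against day 21, but the letters do not pair the mice: the deviations of same-lettered livers correlated at 0.19, -0.33 and -0.45. The cause of these differences was not tested.

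Among the named genes, signs changed only in genes that were not called, under the alternatives given here. With median-centred libraries log2 fold changes were -0.13 for Xbp1, -0.15 for Apoe, -0.15 for Ldha and -0.049 for S100a10. With the 10 Xist livers they were -0.15 for Apoe, -0.092 for Ldha, 0.15 for Fn1 and 0.11 for Stag2. Without 1 liver the ranges were -0.051 to 0.21 for Xbp1, -0.053 to 0.17 for Apoe, -0.23 to 0.067 for Cyp2e1, -0.0074 to 0.44 for Mat1a, -0.070 to 0.22 for Ldha, -0.00093 to 0.34 for S100a10, -0.29 to 0.21 for Fn1, -0.22 to 0.080 for Srsf7 and -0.19 to 0.033 for Stag2. A low gene is limited by depth, and an abundant one listed at 0 cannot be used.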
